A study of Mus musculus with 4 samples.

Results

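The hypoxia response genes described here are Car9, Ndrg1, Bnip3, Vegfa, Adm, Ankrd37, P4ha1 and Egln3. They are 8 of the 32285 genes in the deposited tables and were chosen by symbol as known targets of the hypoxia-inducible factors, by a rule that uses no measured value, though earlier results of these data were known when it was set. When oxygen is plentiful, prolyl hydroxylases mark the factor HIF-1α (Hif1a) or HIF-2α (Epas1) for binding by the von Hippel-Lindau protein (Vhl) and for destruction. When oxygen is scarce the marked form is lost, the factor pairs with Arnt and binds short DNA elements near its targets, which include genes of glucose uptake, pH control, vessel growth and mitochondrial turnover. Solid tumors are known to hold regions far from perfused vessels in which these targets are raised.

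The data were Visium profiles of 4 fresh frozen MC38 tumor sections from separate mice. MC38, a colon carcinoma line of C57BL/6 origin, had been placed under the skin (500000 cells) of female F1 mice aged 8 to 12 weeks. In each strain there were 2 sections, from hosts of the cross C57BL/6J x CC075/UncJ (CC075F1, a responder to anti-PD-1 in the study's classes) or C57BL/6J x CC080/TauUncJ (CC080F1, a non-responder). All hosts had received a single 200 µg dose of the isotype control antibody 2A3 once the tumor measured 75 to 110 mm3 and were euthanized 48 h later, so no section shows a treatment effect, and the tumor cells carry 1 genotype while the host cells carry another. Each Visium spot is a small area of the slide that can hold several cells and captures their RNA as UMIs (unique molecular identifiers, each marking 1 captured molecule). A spot value can therefore be low because fewer cells of a type lie there or because each holds less RNA, and these cannot be told apart. The section, not the spot, was the replicate.

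The sections held 2710 to 3276 spots and 82594649 to 146460975 UMIs, with a median of 31139 to 41740 UMIs per spot. The barcode of a Visium spot is a position code on the slide, so the same barcode recurs between sections. The 4 sections held 11947 spots together, and 1666 distinct barcodes occurred in each of the 4. Shisal2b, the MC38 marker used here, was present at 123 to 267 CPM (UMIs per 1000000 of the section total) and in 87.4% to 96.3% of spots. Spots in which markers of skin, muscle or fat made up at least 1% of UMIs were found only in CC075F1 replicate 2, with 42 such spots.

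The reference sequence upstream of the genes is shown first, because the factors are known to act through a short core element that often lies near gene starts. The core was searched as ACGTG and as GCGTG on both strands in the 250 bases before each RefSeq start (GRCm38.p6), and overlapping matches were counted separately. Ndrg1 had no entry, and all 7 of the other genes held at least 1 match in at least 1 window. Of 32851 promoters, 38.6% held one (16.6% for ACGTG and 28.2% for GCGTG). That share is per window, while the 7 genes had 8 windows. The GC content of the 8 windows ran from 50.8% to 72.4%, and the promoters were not matched for it. The windows of Bnip3 and Ankrd37 held 5 and 4 matches, that of P4ha1 held 3 and that of Adm held 2. Vegfa had 2 windows, with 0 matches in the upstream one and 2 in the other, which lies mostly in its own exons. Egln3 and Car9 had 1 match each. The Car9 match and the whole Ankrd37 window lie inside the GENCODE spans of these genes given in the next paragraph, as the RefSeq starts of both are further downstream than those of GENCODE. The lines below give 4 of the windows and, for Car9, the 25 bases around its match, 5′ to 3′ on the strand of the gene, with matches in capitals. A match is a description of letters and not of a bound site.
Bnip3, chr7:138909507-138909756, minus strand: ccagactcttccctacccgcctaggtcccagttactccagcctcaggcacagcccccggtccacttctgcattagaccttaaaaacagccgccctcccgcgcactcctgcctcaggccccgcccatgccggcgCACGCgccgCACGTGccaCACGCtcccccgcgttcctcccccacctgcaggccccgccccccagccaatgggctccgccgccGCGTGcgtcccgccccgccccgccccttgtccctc
Ankrd37, chr8:45999851-46000100, minus strand: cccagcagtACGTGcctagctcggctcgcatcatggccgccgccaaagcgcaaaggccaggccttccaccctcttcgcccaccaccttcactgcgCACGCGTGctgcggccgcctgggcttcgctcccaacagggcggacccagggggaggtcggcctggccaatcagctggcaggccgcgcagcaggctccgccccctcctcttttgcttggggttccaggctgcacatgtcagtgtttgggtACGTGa
P4ha1, chr10:59323046-59323295, plus strand: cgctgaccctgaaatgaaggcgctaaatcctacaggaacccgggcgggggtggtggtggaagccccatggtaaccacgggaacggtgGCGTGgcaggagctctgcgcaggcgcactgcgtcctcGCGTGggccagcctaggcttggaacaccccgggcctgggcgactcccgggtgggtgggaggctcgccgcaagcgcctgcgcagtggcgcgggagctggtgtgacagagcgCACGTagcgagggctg
Adm, chr7:110627407-110627656, plus strand: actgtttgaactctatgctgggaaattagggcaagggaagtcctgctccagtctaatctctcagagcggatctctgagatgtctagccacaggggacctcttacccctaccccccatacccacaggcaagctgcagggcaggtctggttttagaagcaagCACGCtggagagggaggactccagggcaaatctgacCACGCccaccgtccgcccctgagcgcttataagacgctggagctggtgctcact
Car9, chr4:43506998-43507022, plus strand: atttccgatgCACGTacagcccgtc

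All 8 genes are protein coding and lie apart from each other, with only Bnip3 and Adm on the same chromosome. On GRCm38, Car9 spans chr4:43506966-43513729, Ndrg1 chr15:66929318-66969640, Bnip3 chr7:138890836-138909519 and Vegfa chr17:46016993-46032369. Adm spans chr7:110627661-110629820, Ankrd37 chr8:45996902-46005707, P4ha1 chr10:59323296-59373304 and Egln3 chr12:54178981-54203860. Car9, Ndrg1, Bnip3, Adm and Ankrd37 overlap annotated genes on the opposite strand, among them Ufsp2 and Lrp2bp at Ankrd37. How the counting treated such overlaps is not given in the sources used here.

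The first comparison asked whether the level of each gene in whole sections differed between the responder and the non-responder strain. It did not pass the test for any of the 8 genes. Bnip3, a mitochondrial membrane protein that triggers the removal of mitochondria, stood at 131 and 166 CPM in CC075F1 and at 101 and 146 CPM in CC080F1. Its groups overlapped, and the fitted difference (CC075F1 over CC080F1) was 0.62 on the log2 scale (SE 0.36, n = 2 sections per strain; edgeR quasi-likelihood test, adjusted p = 0.830). Ankrd37, a small ankyrin-repeat protein, was closely spaced between the strains, at 32.4 and 41.4 CPM in CC075F1 and 30.6 and 42.1 CPM in CC080F1.

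Car9, a membrane carbonic anhydrase with a part in pH control, was at 8.29 and 5.12 CPM in CC075F1 and at 3.57 and 6.01 CPM in CC080F1. The strains thus alternated in the order of the sections, and the difference of 0.74 (SE 0.33) had an adjusted p of 0.830 in the same edgeR test. Ndrg1, a stress-induced cytoplasmic protein, was at 98.2 and 113 CPM in CC075F1 and at 112 and 137 CPM in CC080F1. Egln3, itself an oxygen-dependent prolyl hydroxylase that acts on the factors, was at 26.5 and 15.7 CPM against 22.7 and 17.8 CPM, with both CC080F1 values inside the range of CC075F1.

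The secreted factors had other orders. Vegfa, the main growth factor for endothelial cells, was at 99.7 and 57.6 CPM in CC075F1 and at 113 and 92.6 CPM in CC080F1, lowest in the deepest section. Adm, the precursor of the vasodilator adrenomedullin, was sparse, with 98 and 259 UMIs in CC075F1 and 213 and 331 in CC080F1. Its levels were 1.19 and 1.77 CPM against 2.28 and 2.94 CPM and did not overlap. P4ha1, a subunit of the enzyme that hydroxylates collagen prolines, did not overlap either, at 36.5 and 27.1 CPM in CC075F1 and 44.4 and 39.8 CPM in CC080F1.

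Such separation of raw CPM was seen for 2 of the 8 genes, both lower in CC075F1, beside 36.9% of the 15572 genes tested. In the fit, 0 of 8 passed at an adjusted p of 0.05, beside 0.0899% of all genes, and 0 of 8 had an unadjusted p under 0.05, beside 5.43%. The median log2 difference of the 8 genes was 0.22, that of all genes tested −0.02. These values are scaled by TMM, while with library size alone the median of all genes was −0.31 and Ndrg1 turned from 0.11 to −0.24. Adm (−0.44, SE 0.45) and P4ha1 (−0.10, SE 0.17) had adjusted p-values of 0.848 and 0.902 in the edgeR test. With 2 sections per strain a two-sided exact permutation test cannot go below p = 0.333, so no section value could pass that test. The plot of levels by section shows the spread within each strain.

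**Figure D1:**
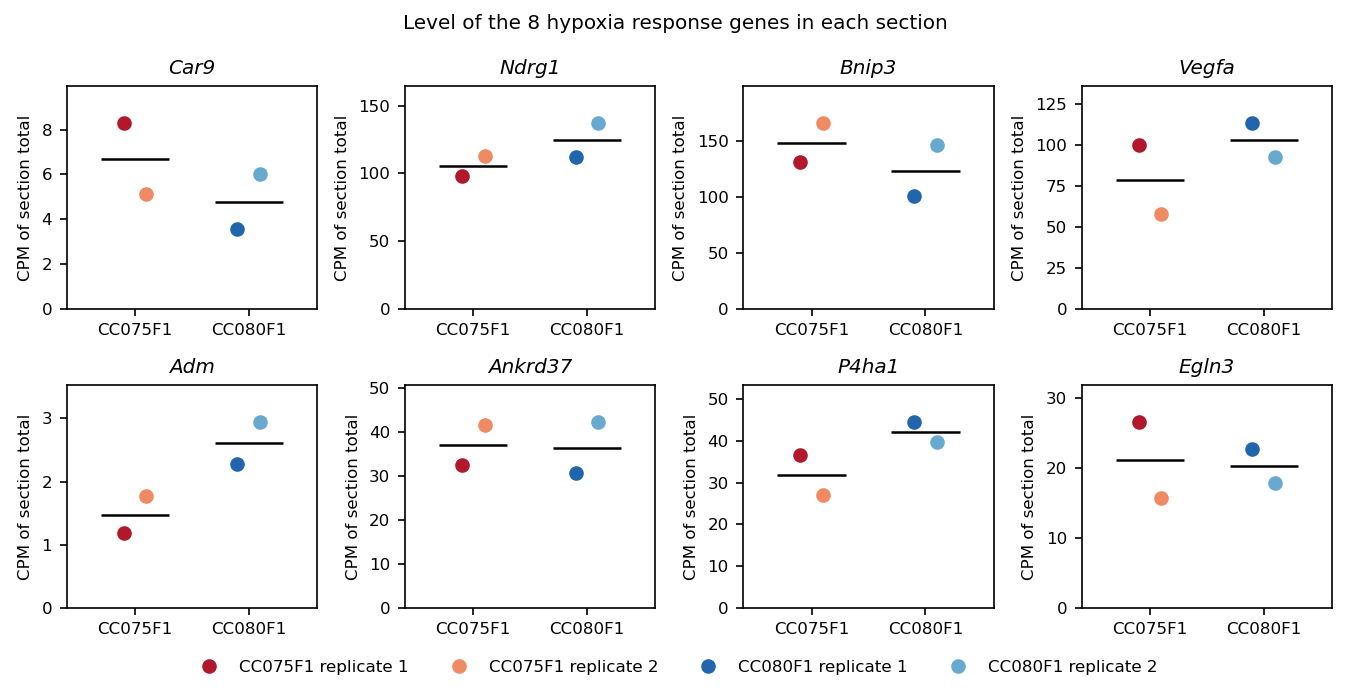
Level of each of the 8 genes in every section, in CPM of the section total on a linear axis from 0. Each dot is a section, the line is the mean of the 2 sections of a strain. The dots of the strains overlap for 6 of the 8 genes, and those of Adm and P4ha1 are lower in CC075F1.

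At least 1 UMI was found in a small minority of spots for Adm and in most spots for Ndrg1 and Vegfa. Adm was seen in 3.39% of spots of CC075F1 replicate 1 (exact Clopper-Pearson 95% interval 2.75% to 4.15%) and in 8.76% of CC080F1 replicate 2 (7.80% to 9.80%), the extremes of its range. Car9 ranged from 8.83% to 17.2% of spots, Egln3 from 39.1% to 48.9%, Ankrd37 from 46.3% to 59.5% and P4ha1 from 60.6% to 69.4%. Bnip3 was found in 68.3% to 80.1% of spots, Vegfa in 80.6% to 91.9% and Ndrg1 in 84.6% to 90.5%. These intervals cover counting error alone. With each spot thinned to 10000 UMIs, the median share over the 8 genes was 26.2% in CC075F1 and 29.6% in CC080F1.

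Within a section the genes were patchy. Moran's I, which is near 0 where neighbouring spots are unrelated and rises towards 1 where they are alike, was computed on log2(CPM + 1) over the up to 6 adjacent spots. Bnip3 had the highest value of the 8 genes in every section, 0.368 and 0.530 in CC075F1 and 0.493 and 0.480 in CC080F1. Only 24, 82, 46 and 66 of the 7084 genes with at least 10 CPM in every section were as clustered, in the same order of sections. Ankrd37 followed at 0.220 and 0.393 in CC075F1 and 0.325 and 0.355 in CC080F1.

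Car9 reached 0.214 to 0.296 despite its few UMIs, and Ndrg1 0.213 to 0.277. Vegfa was at 0.188 and 0.202 in CC075F1 and 0.234 and 0.243 in CC080F1. Egln3 (0.129 to 0.198) and P4ha1 (0.109 to 0.178) were less clustered. The median over the 7084 genes was 0.0422 to 0.0918 per section, below every value of these 7 genes.

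Adm was the exception, at 0.0428 and 0.0191 in CC075F1 and 0.0447 and 0.0701 in CC080F1, where 3269 to 6551 of the 7084 genes were at least as clustered. Moran's I depends on depth. With spots thinned to 10000 UMIs, the values over the 8 genes and 4 sections ran from −0.0055 (Adm) to 0.475 (Bnip3). Without thinning, the sections of the strains did not overlap for 2 of the 8 genes, Vegfa and Adm, beside 14.4% of the 7084 genes. Both were lower in CC075F1, and an exact permutation test gives its smallest p, 0.333, for each. After thinning Adm overlapped, at 0.0419 and −0.0055 in CC075F1 against 0.0137 and 0.0530 in CC080F1, as did Ndrg1 and Bnip3. Car9, Vegfa, Ankrd37, P4ha1 and Egln3 did not overlap then, each lower in CC075F1. The share over all genes was not computed for thinned spots.

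The genes also shared their spots. Over the 28 pairs, the mean of Pearson's r across the spots of a section (spots share a section and its depth, and r is given as a description) was highest for Bnip3 with Ankrd37 at 0.449, followed by Bnip3 with Ndrg1 at 0.375. The 7 lowest pairs were those with Adm, from 0.0588 with Vegfa to 0.109 with Bnip3. To place each gene against the rest, the 25% of spots highest and the 25% lowest for the mean standardized level of the other 7 genes were compared. Bnip3 was 6.72 and 10.7 times as high in the former in CC075F1 and 10.3 and 9.63 times in CC080F1. Car9 was 8.35 and 12.1 times as high in CC075F1 and 9.70 and 24.1 times in CC080F1, the last resting on 17 UMIs in the low spots.

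The ratio for Ankrd37 ran from 4.76 to 7.95, for Egln3 from 2.72 to 4.52 and for Ndrg1 from 2.72 to 3.73. Vegfa (1.97 to 2.63) and P4ha1 (2.11 to 2.68) varied least between such spots. Adm, for all its sparse UMIs, was 2.65 to 3.46 times as high, on 14 to 41 UMIs in the low spots. In every section all 8 genes were thus higher where the other 7 were high.

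The spots in the highest 25% for all 8 genes together, called member-high spots below, formed a few large patches and many small ones. There were 678 and 819 such spots in CC075F1 and 697 and 794 in CC080F1, in 95 and 93 patches and in 103 and 85 patches of adjoining spots. The largest patch held 185 spots (27.3% of the high spots) in CC075F1 replicate 1, 567 (69.2%) in CC075F1 replicate 2, 520 (74.6%) in CC080F1 replicate 1 and 207 (26.1%) in CC080F1 replicate 2. The first of these was closely matched by a second patch of 184 spots. Moran's I of the combined score was 0.498 and 0.633 for CC075F1 against 0.615 and 0.587 for CC080F1. After thinning it was 0.364 and 0.401 against 0.489 and 0.497.

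**Figure D2:**
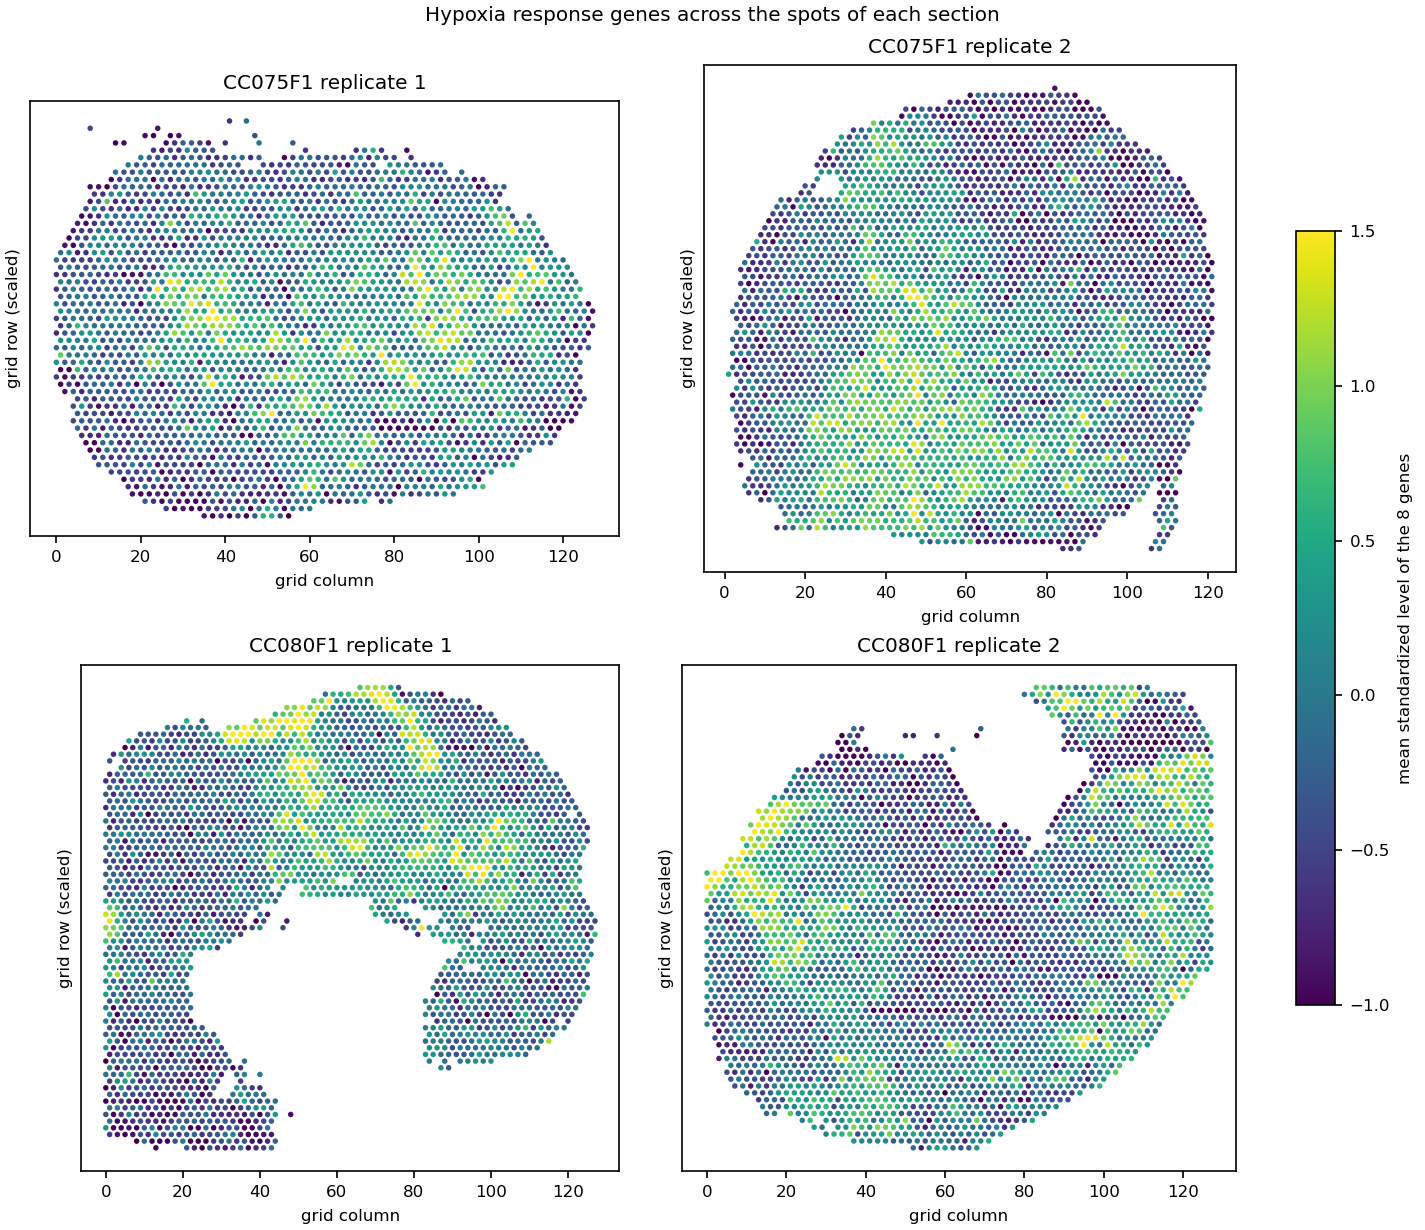
Grid maps of the 4 sections, in grid columns and scaled grid rows, with each dot a spot coloured by the mean standardized log2(CPM + 1) of the 8 genes within its section (colour scale cut at −1 and 1.5). High spots form a pair of inner patches in CC075F1 replicate 1 and a broad band in replicate 2. The largest patch comes to 1 step from a position without tissue in CC075F1 replicate 2 and in both CC080F1 sections.

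Where these patches lay was the next question. Distance was counted in grid steps to the nearest position without tissue, holes inside the tissue included, and spots within 3 steps were called edge. CC080F1 replicate 1 had 29 hole positions, against 3 and 8 in CC075F1 and 2 in CC080F1 replicate 2. Edge spots made up 31.6% of CC080F1 replicate 1, against 21.0% and 20.3% in CC075F1 and 20.4% in CC080F1 replicate 2. In CC075F1 the largest patch came no closer than 9 steps in replicate 1 (median 18) and had 7.41% of its spots at the edge in replicate 2 (median 14 steps). In CC080F1 the largest patch had 23.8% of its spots at the edge in replicate 1 and 24.6% in replicate 2, with a median of 7 steps in both. Of all edge spots, 8.45% and 11.9% were member-high in CC075F1, against 29.4% and 28.3% of interior spots. In CC080F1 the shares were 21.7% and 28.5% of edge spots against 26.5% and 24.1% of interior spots. The deepest spot lay 23 and 29 steps from the edge in CC075F1 and 17 and 23 in CC080F1, so the sections differed in shape too.

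Car9 gave the widest contrast between edge and interior. In CC075F1 it was at 4.28 CPM in edge and 8.92 CPM in interior spots of replicate 1, and at 2.68 and 5.49 CPM in replicate 2. In CC080F1 it was at 4.23 and 3.30 CPM in replicate 1 and at 13.6 and 4.57 CPM in replicate 2. The edge was thus below the interior in both CC075F1 sections and above it in both CC080F1 sections.

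Bnip3 was at 62.6 CPM at the edge and 142 CPM in the interior of CC075F1 replicate 1, and at 99.1 and 176 CPM in replicate 2. In CC080F1 replicate 1 the levels were near each other at 96.7 and 102 CPM, and in replicate 2 the edge was higher, at 215 against 133 CPM. Ankrd37 had the same pattern, with a log2 ratio of edge to interior CPM of −0.65 and −0.53 in the CC075F1 sections against −0.27 and 0.35 in the others. For Egln3 it was −0.57 and −0.33 against −0.30 and 0.61.

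Smaller contrasts were seen for the other intracellular genes and Vegfa. Ndrg1 had edge ratios (log2) of −0.26 and −0.28 for CC075F1 against 0.17 and 0.41 for CC080F1. Those of P4ha1 were −0.12 and −0.10 against 0.21 and 0.68, and those of Vegfa −0.28 and −0.21 against 0.21 and 0.64. Adm alone was higher at the edge in all 4 sections, at 0.31 and 0.33 for CC075F1 and at 0.64 and 0.87 for CC080F1 on the same scale.

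The log2 ratios of the strains did not overlap for 8 of 8 genes, lower in CC075F1 each time, beside 7.56% of the 14345 genes tested. For 4 of the 8, Car9, Ndrg1, Vegfa and P4ha1, both CC075F1 sections were below 0 and both CC080F1 sections above it, beside 1.92% of all genes. The 8 genes go together across spots, so these counts are not 8 independent observations. In the test of the difference between strains (the interaction of strain and edge in edgeR), the log2 differences were −2.22 (SE 0.38) for Car9, −1.45 (SE 0.23) for Bnip3 and −0.81 (SE 0.15) for Vegfa. The adjusted p-values were 0.105, 0.0909 and 0.134 in that order, and 0 of 8 passed, beside 0.0837% of all genes. Unadjusted, 7 of 8 had p under 0.05 with a lower ratio in CC075F1, beside 4.18%, the exception being Adm (−0.60, SE 0.31, adjusted p = 0.632). All 8 were negative, beside 54.7% of all genes, with a median of −0.76 against −0.02. With library size alone, an alternative chosen after seeing the data, the median of all genes moved to 0.12 and all 8 members stayed negative, from −2.06 for Car9 to −0.44 for Adm. The number passing changed when 1 section was left out, with the section left alone in its strain assumed to vary like the others. All 8 stayed negative. They ran from −2.79 (Car9) to −0.73 (Adm) without CC080F1 replicate 1 and from −1.53 (Car9) to −0.27 (Egln3) without CC080F1 replicate 2. Without CC075F1 replicate 1 they ran from −2.29 (Car9) to −0.66 (Adm), and without CC075F1 replicate 2 from −2.15 (Car9) to −0.51 (Adm).

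Averaged over the 4 sections, the edge effect passed for 0 of 8 genes (0.871% of all genes), and the largest was that of Adm at 0.50 (SE 0.18, edgeR adjusted p = 0.207). Several other measures moved with the edge. Edge spots were shallower, with a median of 18032 UMIs against 33592 in the interior of CC075F1 replicate 1 and 25171 against 46146 in replicate 2, and 30120 against 34844 and 26855 against 37003 in CC080F1. The sum of 10 skeletal muscle markers was 1321 CPM at the edge and 21.6 CPM in the interior of CC075F1 replicate 2, and 7.10 to 27.7 CPM in both zones of the other sections. The sum of 15 endothelial markers was 296 against 154 CPM and 275 against 129 CPM in CC075F1, and 296 against 277 CPM and 278 against 212 CPM in CC080F1. Hemoglobin and other red cell markers summed to 56.6 CPM at the edge and 18.7 CPM in the interior of CC075F1 replicate 1, to 204 and 414 CPM in replicate 2, to 236 and 84.2 CPM in CC080F1 replicate 1 and to 705 and 53.7 CPM in replicate 2. The part of these in the result was not tested. In CC080F1, 75 and 58 spots lay on the rim of the capture area, against 25 and 1 in CC075F1, so part of the tissue there ran on past the grid.

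**Figure D3:**
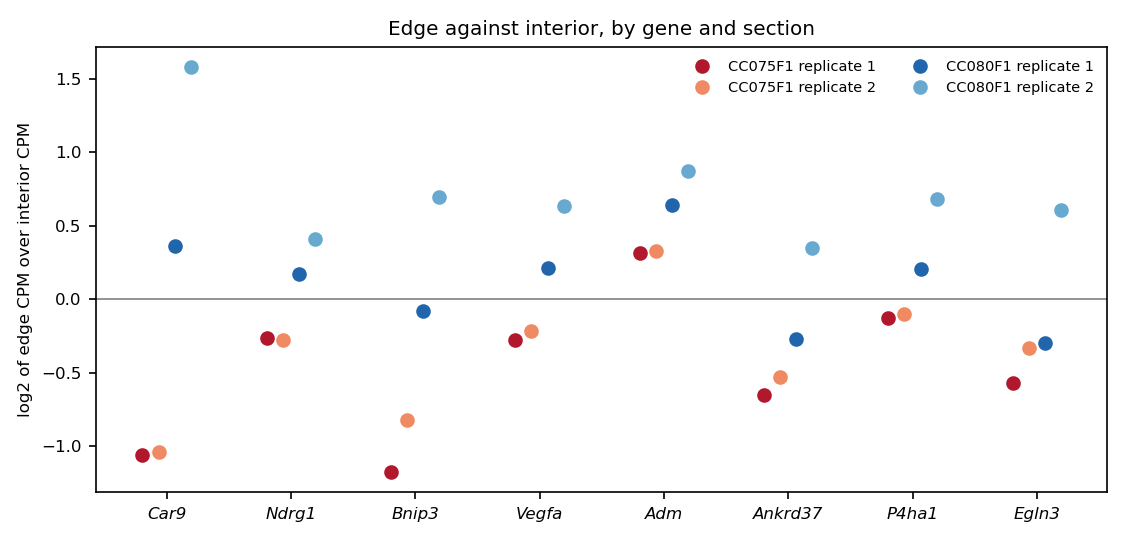
Log2 ratio of edge CPM to interior CPM for each gene, 1 dot per section, with the line at 0 marking equal levels. The CC075F1 dots lie below the CC080F1 dots for all 8 genes, on opposite sides of 0 for Car9, Ndrg1, Vegfa and P4ha1, and the Adm dots are above 0 in all 4 sections.

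Finer bins of distance showed how far the pattern reached. In CC075F1 replicate 1, Bnip3 was at 62.6, 70.4, 83.0, 123 and 213 CPM in spots 1 to 3, 4 to 6, 7 to 9, 10 to 12 and 13 or more steps from the edge. In replicate 2 it was at 99.1, 101, 144, 168 and 219 CPM. Bnip3 was thus higher in each bin than in the one before it in both CC075F1 sections. In CC080F1 replicate 1 the levels were 96.7, 83.4, 122, 123 and 66.8 CPM, highest in the middle and lowest at the centre. In CC080F1 replicate 2 they were 215, 156, 148, 116 and 121 CPM, highest at the edge.

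Car9 was at 4.28, 4.95, 4.28, 6.02 and 14.4 CPM over these bins in CC075F1 replicate 1 and at 2.68, 2.90, 3.54, 5.15 and 7.35 CPM in replicate 2. In CC080F1 it was at 4.23, 2.59, 4.16, 3.74 and 2.36 CPM and at 13.6, 7.72, 5.66, 2.94 and 3.15 CPM. The innermost bin was therefore the highest in both CC075F1 sections and at or near the lowest in both CC080F1 sections. Vegfa in the innermost against the outermost bin was at 115 against 84.2 CPM and 63.4 against 50.6 CPM in CC075F1, and at 101 against 125 CPM and 79.8 against 132 CPM in CC080F1.

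**Figure D4:**
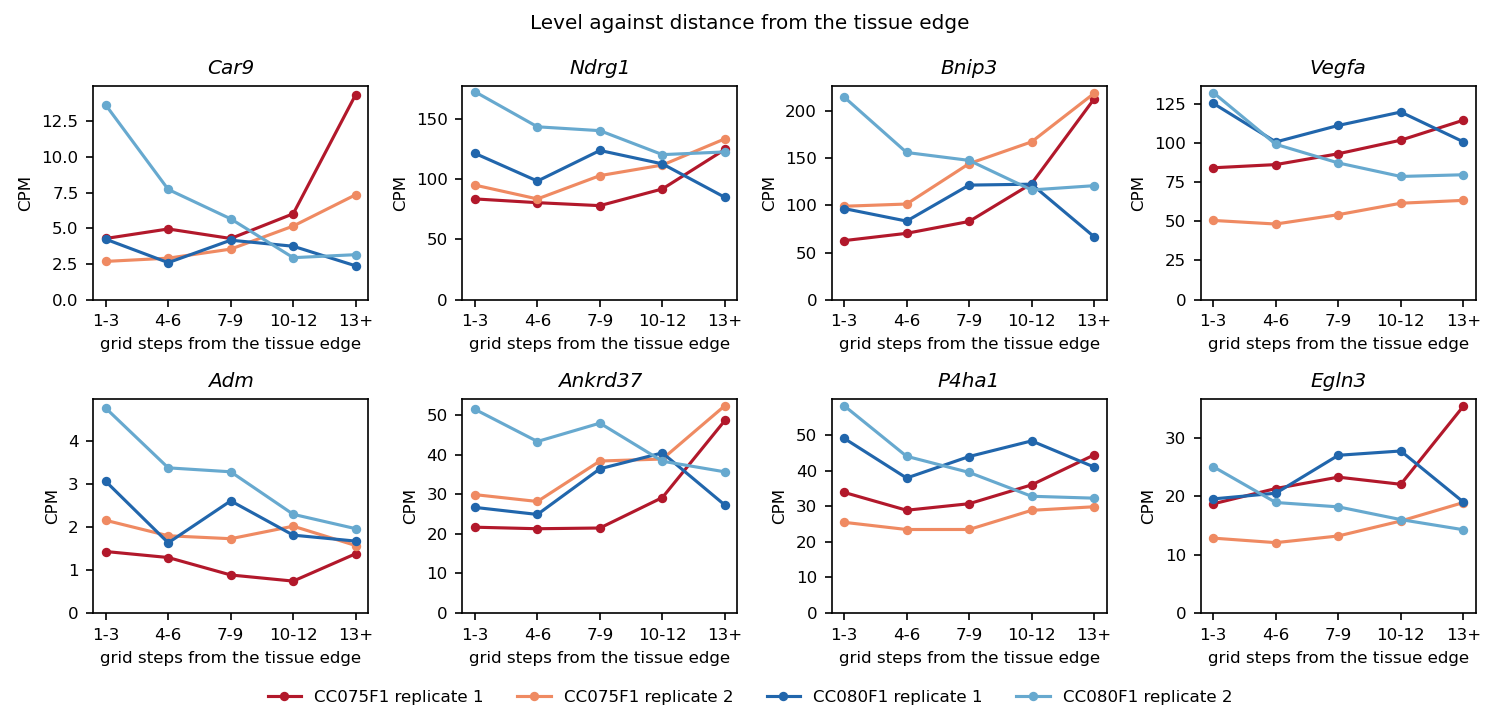
CPM of each gene in spots summed by grid distance to the nearest position without tissue (bins of 1 to 3, 4 to 6, 7 to 9, 10 to 12 and 13 or more steps), 1 line per section, on linear axes from 0. The Bnip3 lines go up with distance in both CC075F1 sections, to 213 and 219 CPM, and end at 66.8 and 121 CPM in CC080F1.

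Across spots, Spearman's rho between level and distance was 0.402 and 0.303 for Bnip3 in CC075F1 and 0.0803 and −0.0794 in CC080F1. Over all 8 genes rho was 0.0375 to 0.402 in CC075F1 and −0.114 to 0.126 in CC080F1. This correlation coefficient was higher in both CC075F1 sections than in both CC080F1 sections for 8 of 8 genes, beside 16.0% of the 7084 genes. Those have at least 10 CPM in every section, which Car9 and Adm do not reach. Depth rises with distance too, and after thinning rho ran from −0.0053 to 0.326 in CC075F1 and from −0.112 to 0.0734 in CC080F1. The strains then did not overlap for 7 of 8 genes, Egln3 being the one that overlapped. The share over all genes was not computed after thinning, so this count has none to stand beside. With distance to the outer boundary alone, unthinned rho in CC080F1 replicate 1 was 0.135 for Bnip3, −0.0046 for Ndrg1 and 0.0095 for Vegfa. With holes counted these were 0.0803, −0.0607 and −0.0217. The strain difference in the edge ratio under the outer boundary ran from −2.35 (Car9) to −0.52 (Adm).

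What else differed where these genes were highest was tested by comparing, in each section, the member-high spots with the 25% lowest (member-low spots), over 13378 other genes. As the spots were chosen by the members, the members' own values there are not a result. Of the other genes, 2050 (15.3%) were lower and 2068 (15.5%) higher in member-high spots in the edgeR test. Read against library size alone, an alternative chosen after seeing the data, the median of all genes moved from 0.00 to −0.20 and the calls to 4692 lower and 745 higher (86.3% lower instead of 49.8%), so differences here are relative to the typical gene. Without CC080F1 replicate 2 the counts were 915 and 897. Member-high spots were deeper, with a median of 34837 against 25113 UMIs and 57219 against 28695 UMIs in CC075F1, and 35185 against 29804 and 33394 against 32022 in CC080F1. After thinning to 10000 UMIs, 1265 (10.7%) were lower and 1371 (11.6%) higher. When spots were ranked by the score of their neighbours instead of their own, 1904 (14.3%) were lower and 1980 (14.8%) higher.

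Other targets of the same factors were higher in these spots. Of 39 tested, 31 rose and 3 fell, with a median log2 ratio of 1.33 against 0.00 over all genes. Slc2a1, the main glucose transporter of hypoxic cells, was at 158 CPM in member-high and 31.4 CPM in member-low spots of CC075F1 replicate 1 and at 227 and 32.9 CPM in replicate 2. In CC080F1 it was at 226 and 35.6 CPM and at 296 and 37.2 CPM, the highest ratio of all genes named by the rule (log2 2.90, SE 0.12, edgeR adjusted p = 3.65e-06). Ero1l, an oxidase of protein folding in the endoplasmic reticulum, was 2.65 higher on the log2 scale, P4ha2, the sister subunit of P4ha1, 2.37, and Ddit4, an inhibitor of mTORC1, 2.05. The 3 that fell were Angptl4 (−0.53), Loxl2 (−0.45) and Pdgfb (−0.37), a vessel-acting lipase inhibitor, a matrix cross-linking oxidase and a pericyte growth factor, named after their values were seen. After thinning none of the 3 passed, at −0.016, −0.25 and −0.17 (edgeR adjusted p = 0.954, 0.280 and 0.227), and 31 of the 39 were still higher.

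Energy metabolism moved in part. All 12 of 12 glycolytic enzymes rose (median 1.08), 11 of them after thinning, among them Pfkl at 1.42, a phosphofructokinase, and Aldoa at 1.55, an aldolase. The closest match to the members over spots was Gapdh, which is on this list, followed by Pgk1 and Ldha, which are not. The mean of Pearson's r with the members' score, over 4 sections and 7084 genes, was 0.619 for Gapdh, 0.613 for Pgk1 and 0.593 for Ldha. Of 22 nuclear subunits of the respiratory chain only 1 rose and 1 fell (median −0.01), but with library size alone 18 fell and 0 rose (median −0.21). Of 13 mitochondrially encoded transcripts 2 fell (median −0.22) or, with library size alone, 7 (median −0.41). After thinning 3 of 12 of these transcripts fell and 2 rose (median −0.026). The 13 summed to 18234 CPM in high and 15434 CPM in low spots of CC075F1 replicate 2, and were lower in high spots of the other sections. The 22 nuclear subunits summed to 7178 and 8127 CPM in high and low spots of CC075F1 replicate 1, 7358 and 8438 CPM in replicate 2, 7469 and 8223 CPM in CC080F1 replicate 1 and 6785 and 7846 CPM in replicate 2, lower in member-high spots of all 4 sections. Bnip3l, the close relative of Bnip3 in mitophagy, was 1.37 higher, with 5 of 8 mitophagy and autophagy genes raised and 0 lowered.

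Of 13 regulators of the factors, 3 rose and 1 fell (median 0.04). Egln1, the prolyl hydroxylase that is the main oxygen sensor, was at 142 and 70.6 CPM in high and low spots of CC075F1 replicate 1 and at 78.4 and 36.5 CPM in replicate 2. In CC080F1 it was at 166 and 72.2 CPM and at 166 and 65.8 CPM, so it was higher in member-high spots of 4 of 4 sections (log2 1.36, SE 0.08, adjusted p = 1.49e-05 in edgeR). Siah2, a ligase that degrades such hydroxylases, was 0.48 higher. Vhl was 0.23 higher, but 0.03 with library size alone (adjusted p = 0.797) and 0.20 without CC080F1 replicate 2 (adjusted p = 0.0860).

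Hif1a, the transcript of the factor itself, did not pass, at −0.16 (SE 0.07, edgeR adjusted p = 0.137), and with library size alone it was −0.35 (adjusted p = 0.00556). Hif1an, the asparagine hydroxylase of the factor, had −0.23 (adjusted p = 0.0577), and passed at −0.31 with the score of the neighbours (adjusted p = 0.0164), at −0.44 with the top and bottom 10% of spots (adjusted p = 0.00665) and at −0.42 with library size alone (adjusted p = 0.0229). Egln2 had −0.01 (adjusted p = 0.941). Epas1, which encodes HIF-2α and is abundant in endothelium, fell: it was at 4.42 CPM in high and 19.0 CPM in low spots of CC075F1 replicate 1 and at 2.85 and 13.9 CPM in replicate 2. In CC080F1 the levels were 13.8 and 32.1 CPM and 7.11 and 24.4 CPM, a log2 ratio of −1.61 (SE 0.14, adjusted p = 0.000129).

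Among genes with a mean of at least 10 CPM that fell in all 4 sections, the 10 most negative log2 ratios were those of Mgp (−2.22), Col1a2 (−2.09), Mest (−2.01), Postn (−1.91), Bgn (−1.89), Kdr (−1.83), Col15a1 (−1.80), Serping1 (−1.77), Col1a1 (−1.65) and Serpina3g (−1.63). Mgp, a matrix inhibitor of calcification, was at 6.98 and 39.7 CPM in high and low spots of CC075F1 replicate 1 and at 13.5 and 95.4 CPM in replicate 2. In CC080F1 it was at 11.2 and 36.3 CPM and at 7.11 and 43.7 CPM, lower in member-high spots of 4 of 4 sections. Several of them were less negative after thinning, with Col1a2 at −0.97, Col1a1 at −0.77 and Mgp at −1.34. Col1a1 did not pass without CC075F1 replicate 1 (−1.61, edgeR adjusted p = 0.0555). Lists of adjoining tissue, whose genes did not meet these conditions, had more negative medians: 2 of 2 adipocyte genes tested fell (median −3.42), as did 5 of 8 skeletal muscle genes (median −2.47).

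Kdr, the main signalling receptor for the product of Vegfa, was low where Vegfa was high. It was at 4.94 and 21.3 CPM in high and low spots of CC075F1 replicate 1 and at 2.59 and 13.8 CPM in replicate 2. In CC080F1 it was at 12.98 and 35.7 CPM and at 5.40 and 25.7 CPM, so that every member-high value was below every member-low value. The log2 ratio was −1.83 (SE 0.12, adjusted p = 3.72e-05 in the edgeR test) and −1.31 after thinning. Flt1, the decoy-type receptor of the same ligand, was −0.70 (adjusted p = 0.0306), and did not pass without CC075F1 replicate 2 (adjusted p = 0.0603) or CC080F1 replicate 2 (adjusted p = 0.0524).

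The adrenomedullin receptor is made of Calcrl with Ramp2 or Ramp3. Ramp2 fell by 1.301 on the log2 scale and Calcrl by 0.61, the latter not passing after thinning (−0.24, edgeR adjusted p = 0.333), while Ramp3 had 0.39 (adjusted p = 0.307). Ackr3, a scavenging receptor that takes up adrenomedullin, rose by 0.46, and Nrp2, a co-receptor of the VEGF family, by 0.28. Over the 8 receptor genes, 4 fell and 2 rose (median −0.40), and after thinning 3 fell and 2 rose with a median of −0.085.

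Of 15 endothelial markers, 13 fell and 0 rose (median −1.12, and −0.80 after thinning with 11 of 13 lower). Their summed level was 97.5 CPM in high and 259 CPM in low spots of CC075F1 replicate 1, 79.8 and 236 CPM in replicate 2, 191 and 353 CPM in CC080F1 replicate 1 and 135 and 321 CPM in replicate 2. Plvap, a protein of fenestrated endothelium, fell by 1.37 and Emcn, a sialomucin of capillaries and veins, by 1.45. Of 8 pericyte markers 7 fell, with Rgs5 at −1.53. The fibroblast list was mixed: 7 of 12 fell and 2 rose (median −1.37, and −0.64 after thinning with 6 lower), those that rose being Dcn (0.52) and Pdgfra (0.29), named after their values were seen. The high and low spots differed in foreign tissue as well. In CC075F1 replicate 2 the muscle sum was 26.4 CPM in high and 557 CPM in low spots, and in the other sections 7.07 to 39.4 CPM in both. Its part in the fibroblast values was not tested.

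Most T and NK cell and interferon-γ genes tested were lower too. Of 16 T and NK cell markers 12 fell and 0 rose (median −0.99, and −0.59 after thinning with 8 of 13 lower). They summed to 91.0 and 153 CPM in high and low spots of CC075F1 replicate 1, 64.6 and 210 CPM in replicate 2, 32.5 and 41.1 CPM in CC080F1 replicate 1 and 62.3 and 104 CPM in replicate 2. Cxcl9, the interferon-induced chemokine that draws T cells, was at 176 and 454 CPM and at 137 and 496 CPM in CC075F1, and at 36.9 and 64.3 CPM and at 57.1 and 189 CPM in CC080F1. Its log2 ratio was −1.26 (SE 0.12, edgeR adjusted p = 0.000212). Of 14 interferon-γ response genes 10 fell and 1 rose (median −0.46). The one that rose was Cd274 (0.57), which encodes PD-L1, singled out after its value was seen. The 14 genes summed to 5275 and 5898 CPM in high and low spots of CC075F1 replicate 1 and to 4852 and 5777 CPM in replicate 2. In CC080F1 replicate 1 the sum was higher in member-high spots, at 3893 against 3790 CPM. In CC080F1 replicate 2 it was 3671 against 4776 CPM. After thinning 9 of the 14 fell and 2 rose (median −0.34). Of 8 MHC class II genes 7 fell (median −0.61), and in the sparser B cell and type 1 dendritic cell lists 1 of 3 and 1 of 5 fell.

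Macrophage genes did not move as a block, with 3 of 13 lower and 3 higher (median −0.14). A second macrophage list, of genes often named with Spp1 in tumor macrophages, had 7 of 11 higher and 0 lower (median 0.70). Arg1, which breaks down arginine, was 1.43 higher on that list (27.6 and 19.7 CPM and 16.5 and 12.5 CPM in CC075F1, 79.3 and 17.0 CPM and 95.6 and 31.1 CPM in CC080F1). Spp1 itself did not pass (0.74, adjusted p = 0.0530 in edgeR). Of 7 neutrophil genes 2 rose.

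Genes of proliferation fell by small amounts. All 15 of 15 DNA replication genes fell (median −0.48), as did 10 of 14 cell cycle genes (median −0.28). Mcm5, a subunit of the replicative helicase, was at 104 and 155 CPM and at 62.0 and 133 CPM in CC075F1, and at 123 and 186 CPM and at 82.8 and 167 CPM in CC080F1 (log2 −0.63, SE 0.06, edgeR adjusted p = 0.000367). Genes of the integrated stress response rose, 9 of 11 with 0 lower (median 1.06). Trib3, a pseudokinase of that response, was 2.11 higher and Vldlr, a lipoprotein receptor, 2.45. The MC38 marker Shisal2b did not pass (−0.15, adjusted p = 0.156). Of 9 collagen-processing genes 2 rose, P4ha2 and P4hb, which form the prolyl 4-hydroxylase together with or in place of P4ha1. None of the 12 cholesterol synthesis genes or the 4 red cell genes passed in edgeR, and 1 of 5 keratinocyte genes rose.

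The contrast of member-high with member-low spots differed between the strains for 6 genes in the edgeR interaction (0.0448% of 13378). They were Fhl1 (−3.33), Lum (−2.54), Tnc (−2.31), Ccn2 (−2.31), Postn (−1.44) and Clec4n (−1.17), all with a more negative ratio in CC075F1, and 5 of them are genes of matrix, muscle or fibroblasts. With interior spots alone 0 genes passed, and 455 of 13048 had an unadjusted p under 0.05. The muscle markers of CC075F1 replicate 2 lay in member-low spots at its edge, and their part in these values was not tested.

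**Figure D5:**
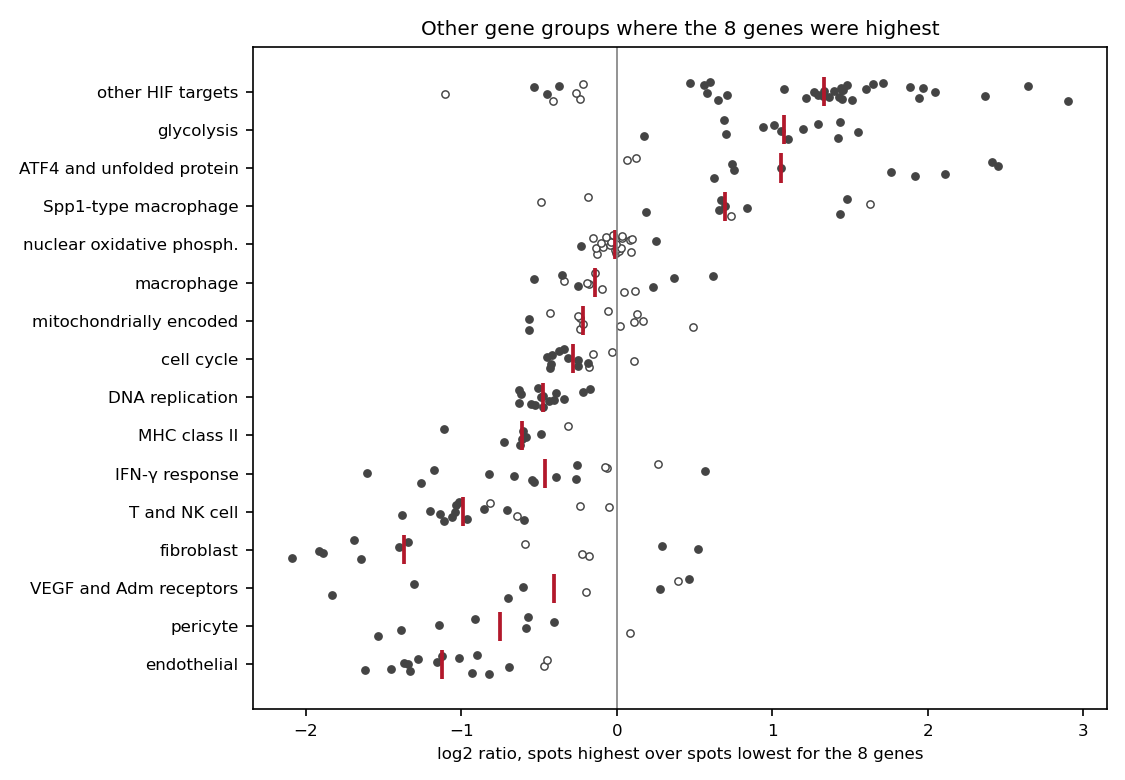
Log2 ratio of member-high to member-low spots for the genes of 16 lists, 1 dot per gene, filled where the edgeR adjusted p was under 0.05, with a red bar at the median of each list. Other targets of the factors (median 1.33) and glycolysis (1.08) lie above 0, and endothelial (−1.12), T and NK cell (−0.99) and DNA replication genes (−0.48) below it.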

How the data were processed

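Spatial RNA capture (Visium) data of 4 sections, 2 per strain, were used as deposited. The authors ran Space Ranger 1.3.1 (version per the file headers) on mm10/GRCm38 to align reads and count them by spot. What they deposited are unnormalized UMI counts of each gene in each tissue spot. The authors' Seurat 5.0.1 normalization was not used. A symbol with more than 1 identifier was taken as the identifier with more UMIs. Gene positions are from GENCODE on GRCm38 and promoters from RefSeq.

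Counts were summed per section, per zone, or per member-high and member-low spots. They were fitted over all genes passing filterByExpr with the quasi-likelihood test of edgeR 4.0.16 under R 4.3.3, scaled by TMM. Calls were made at a Benjamini-Hochberg adjusted p under 0.05. The strain fit had strain alone, the others had the section as a block. The labels call the sections biological replicates and give no slide or library batch, so a batch and the strain cannot be told apart. Edge spots lay within 3 steps of a position without tissue, and the members' score was the mean of standardized log2(CPM + 1). Section totals of 82594649 to 146460975 UMIs make a limit of 3 UMIs equal to 0.0205 to 0.0363 CPM. Python 3.11.15 with numpy 2.4.6 and scipy 1.17.1 did the rest, and the fits were tested on simulated data. DESeq2 1.42.0 served as an alternative for the strain difference, beside other scalings, filters, edge widths, thinned spots and left-out sections. Library size alone in the spot and edge comparisons was added after seeing the data.

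The members, gene lists and comparisons were chosen with earlier results of these data known. Named genes were the members, up to 4 per list with the largest ratio of those passing in 1 direction in all 4 sections at 10 CPM or more, and the 10 most negative and 10 most positive of all genes under the same conditions. Also named were the 10 genes with the highest and the 10 with the lowest r with the score, the listed regulators and the receptors. The lists were other HIF targets, HIF regulators, glycolysis, VEGF and adrenomedullin receptors, collagen processing, mitophagy and autophagy, integrated stress response, endothelial cells, pericytes, fibroblasts, macrophages, Spp1 macrophages, T and NK cells, interferon-γ response, MHC class II, neutrophils, B cells, type 1 dendritic cells, the MC38 marker, cell cycle, DNA replication, nuclear and mitochondrial respiratory chain, cholesterol synthesis, keratinocytes, skeletal muscle, adipocytes and red cells.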

Additional observations from a re-analysis of the deposited data

Results flagged for a closer look

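For 4 genes the edge was below the interior in both CC075F1 sections and above it in both CC080F1 sections. The log2 difference between the strains in the edge ratio was −2.22 for Car9, −0.71 for Ndrg1, −0.81 for Vegfa and −0.70 for P4ha1. The difference itself was tested as an interaction in edgeR and did not pass for any of these (adjusted p = 0.105, 0.125, 0.134 and 0.216 in that order). The same opposite order was seen in 1.92% of all genes tested, and the 4 genes share spots, so they are not independent of each other.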

How the results depend on the processing

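The members' strain difference (0 of 8 called) and mean edge effect (0 of 8 called) passed under no alternative, 11 and 13 in number. The number of members called for the strain difference in the edge ratio was 0 in the main fit, beside 12 of all genes. It became 2 with deep spots (10000 UMIs or more) without skin, muscle or fat, beside 38 of all genes. With an edge of 2 steps it was 1, beside 23, and with no filter on low counts 7, beside 532. It also changed when a section was left out. Genes lower in member-high spots (2050) became 1265 with thinned spots, 4692 with library size alone and 915 to 1791 when leaving out a section, and those higher (2068) became 1371, 745 and 897 to 1932. The median Moran's I of the members moved with 2 rings of neighbours (0.187 in CC075F1, 0.205 in CC080F1), with thinned spots (0.0771, 0.135) and with log2(CPM + 10) in CC080F1 (0.274). The median rho with distance in CC075F1 was 0.0968 with thinned spots. The median share of spots was 30.0% and 32.1% at 2 or more UMIs and 26.2% and 29.6% with thinned spots.

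The replicate numbers in the labels name samples and give only 2 pairs (r of the deviations 0.443 over 8413 genes), so the replicate block counts as an alternative only. Under the replicate block 6 of 8 members passed for the strain difference in the edge ratio, beside 170 of all genes. For the strain and mean edge effects 0 members passed, and 287 genes passed for the strain.

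Signs that turned were these. The strain difference was −0.24 for Ndrg1 with library size alone, 0.027 for Vegfa and 0.033 for P4ha1 in interior spots, and when leaving out a section it ran from −0.30 to 0.43 for Ndrg1, −0.25 to 0.015 for Vegfa, −1.09 to 0.013 for Adm and −0.13 to 0.76 for Ankrd37. The mean edge effect of Car9 was 0.058 with deep spots without skin, muscle or fat, 0.13 with an edge of 2 steps, 0.061 with the outer boundary alone, 0.017 under the replicate block and 0.034 with library size alone, and −0.65 to 0.43 when leaving out a section. That of Ndrg1 was 0.015 with library size alone (−0.22 to 0.10 without a section). That of Vegfa was −0.056 with an edge of 5 steps, −0.0059 with the grid rim as edge and −0.0022 with no filter (−0.18 to 0.18 without a section), and that of P4ha1 −0.010 with an edge of 5 steps (−0.10 to 0.26 without a section). In member-high spots Egln2 was 0.0026 with deep spots without foreign tissue, 0.017 in interior spots, 0.012 with no filter and −0.028 to 0.029 when leaving out a section. S100a6 was −0.022 with thinned spots, −0.011 with the top and bottom 10% of spots, −0.18 with library size alone and −0.0060 to 0.090 when leaving out a section. The cause of these shifts was not tested.

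Over all genes, the 14 called for the strain ranged from 11 to 480 over alternatives, 480 with no filter, 194 with the DESeq2 Wald test and 40 with library size alone. The 125 called for the mean edge effect ranged from 1 to 854, and the 12 called for its strain difference from 2 to 532, 532 with no filter and 170 under the replicate block. The 6 called for the strain difference between member-high and member-low spots ranged from 0 to 85, and from 33 to 135 when leaving out a section. A section left alone in its strain was assumed to vary like the others. With 98 to 331 UMIs per section, Adm is limited by depth in each measure.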

Other observations

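Besides Gapdh, Pgk1, Ldha and Aldoa, the 10 genes with the highest mean r with the members' score across spots held Mif, Mt1, Fau, Fam162a, Rpl13a and Rpl13. The mean r was 0.587 for Mif, a cytokine with tautomerase activity, 0.554 for Mt1, a metal-binding metallothionein, 0.549 for Fau, a ribosomal protein fusion gene, 0.547 for Fam162a, which is on the list of other HIF targets, 0.523 for Rpl13a and 0.522 for Rpl13, which encode ribosomal proteins. No list of ribosomal genes was tested, and these r values were computed without thinning. In CC075F1 replicate 1 these were lower than in the other sections, at 0.343 for Fau and 0.310 for Rpl13a. Rpl13 did not pass in the comparison of spots without CC080F1 replicate 2 (edgeR adjusted p = 0.0832). The lowest mean r values were those of Tuba1b (−0.342), Tmsb4x (−0.329), Ptma (−0.322) and Igfbp7 (−0.295), the first 3 of them genes of the cytoskeleton and chromatin. Tuba1b ran from −0.490 to −0.0427 over the sections.

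Among the 10 most positive ratios were also Hspa1b (2.82), an inducible heat shock chaperone, Mgarp (2.62), a mitochondrial transport protein induced in hypoxia, Ier3 (2.38), an immediate early gene, Cox6a2 (2.10), a muscle-type subunit of cytochrome oxidase, and Prelid2 (2.08). Hspa1b varied between sections, at 18.03 and 4.58 CPM in high and low spots of CC075F1 replicate 1 and 41.0 and 4.36 CPM in CC080F1 replicate 2. Cxcl2, a chemokine for neutrophils and 1 of the 2 genes of that list that rose, was 2.03 higher. It was singled out after its value was seen.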
